A study of Drosophila melanogaster with 6 samples.

Results

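Genes for digestive enzymes of the fly midgut were followed in 6 RNA-seq libraries from whole *Drosophila melanogaster* embryos aged 16-20 h at 25 °C. Members were chosen by name from the deposited gene table: the *Jon* (Jonah) genes with *yip7*, the genes whose names end in Try, the *Amy-*, *Mal-A* and *Mal-B* genes, and the lysozyme genes *LysB* to *LysX*. This gave 47 of the 17208 genes in the table, made up of 28 serine protease genes, 12 genes for carbohydrate enzymes and 7 lysozyme genes. The name Mag, also in the rule, matched no gene.

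The mutant group (n = 4 libraries) carried the alleles *ft fd5-5* and *ft X13* over each other, a combination that the series describes as null for *fat* and that is called *ft* null here. The control group (n = 2 libraries) was the *w1118* strain, which carries a mutation in the eye colour gene *white* and serves as the wild type. *fat* encodes a giant cadherin known for roles in Hippo signalling and in planar polarity. How mutant embryos were told from siblings, and whether libraries came from separate collections, is not given in the sources used here, and each p-value below is thus set against differences among these libraries that may be technical only. Genotype and strain background vary together and cannot be told apart. Whether the groups differed in mean age within the collection window was not tested.

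The larval midgut of the fly forms from the endoderm and begins to make digestive enzymes at the end of embryogenesis, before the larva hatches and feeds. Trypsins cut proteins after basic residues, and the Jonah proteases, related to chymotrypsin, cut after other residues. Amylases break starch into short sugars, maltases (alpha-glucosidases) split these into glucose, and the gut lysozymes of flies break down bacterial cell walls taken in with food. Most of these genes lie side by side in tandem arrays of related copies.

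Library totals ran from 21261928 to 29151981 estimated counts. The transcript of *ft* itself was lower in *ft* null, at 28.6 to 32.2 CPM (counts per 1e6 counts of the library, with TMM scaling) against 43.2 and 46.3 in *w1118* (log2 fold change -0.57, edgeR adjusted p = 0.0249). Differences below are *ft* null minus *w1118*, from edgeR's quasi-likelihood test over 11542 genes with Benjamini-Hochberg adjustment, called under 0.05. Midgut markers were present in every library. All 16 genes of a midgut identity list passed the filter on low counts and 0 were called, where 4.30% of all tested genes were. At an unadjusted p under 0.05, 2 were higher and 0 lower, where 9.92% and 10.2% of all tested genes were. The log2 fold changes of these 16 ran from -0.32 for *GATAe*, a GATA factor of the endoderm (edgeR adjusted p = 0.307), to 0.94 for *pros*, a homeobox gene of enteroendocrine cells that is also expressed in the nervous system (edgeR adjusted p = 0.0531). In the mutants *pros* and *Ssk*, a gene of the smooth septate junctions of the midgut (0.53, edgeR adjusted p = 0.116), lay above both controls in all 4 libraries, and the other 14 overlapped. Of all tested genes, 15.1% had all mutant values above both controls and 16.4% had all below. *GATAe*, *pros*, *Ssk*, *kappaTry*, *Jon99Ci*, *Amy-p*, *Try29F* and other genes named outside the naming rule were chosen after their values were seen. *Jon25Bi*, *Jon25Bii* and *Jon25Biii*, named below, were chosen for their position. These RNAs come from whole embryos, in which fewer gut cells and less RNA per gut cell cannot be told apart.

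Of the 47 members, 37 passed the filter on low counts and 10 did not: *betaTry*, *epsilonTry*, *Jon65Ai*, *Jon65Aii*, *Jon66Ci*, *Mal-A7*, *LysB*, *LysC*, *LysE* and *LysP*. A gene can pass that filter through the genotype in which it is higher, so the counts over tested members describe those members only. Together the members took 0.0831% to 0.166% of the library. Within this sum the carbohydrate enzymes held 559 to 983 CPM, the proteases 268 to 669 CPM and the lysozymes 4.28 to 18.0 CPM.

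Per kilobase of exon, 1 maltase gene stood above all other members. *Mal-A3* (FBgn0002571, dm6 2R from 8455909 to 8457892) averaged 356 ± 83.9 CPM per kb in *ft* null (SD, n = 4) and 358 ± 38.5 in *w1118* (SD, n = 2), and it supplied 73.4% to 80.6% of the CPM of all carbohydrate enzymes in each library. The next carbohydrate enzymes, *Mal-A5* and *Mal-A2*, averaged 20.4 and 19.9 CPM per kb over the 6 libraries. The highest protease was *yip7*, a Jonah-type gene (FBgn0040060, 3L from 6035216 to 6036175), at 179 ± 81.5 CPM per kb in *ft* null and 206 ± 12.0 in *w1118*. It was followed by *Jon65Aiv* at 120 and *Jon65Aiii* at 71.7 CPM per kb over the 6 libraries. *yip7*, *Jon65Aiv* and *Jon65Aiii* lie in 1 array of 5 members within 19.2 kb of 3L, and the array also holds *Jon65Aii* and *Jon65Ai*, which stood at 0.146 and 0.0638 CPM per kb. Among trypsins, *kappaTry* and *lambdaTry* led with 40.3 and 39.6 CPM per kb. The lysozymes were led by *LysS* at 14.1 CPM per kb, with *LysD* at 1.54 and *LysX* at 1.15. *LysP*, known for expression in the adult salivary gland, had 0 reads in all 6 libraries, which allows up to 0.0203 CPM over the pooled libraries.

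**Figure D1:**
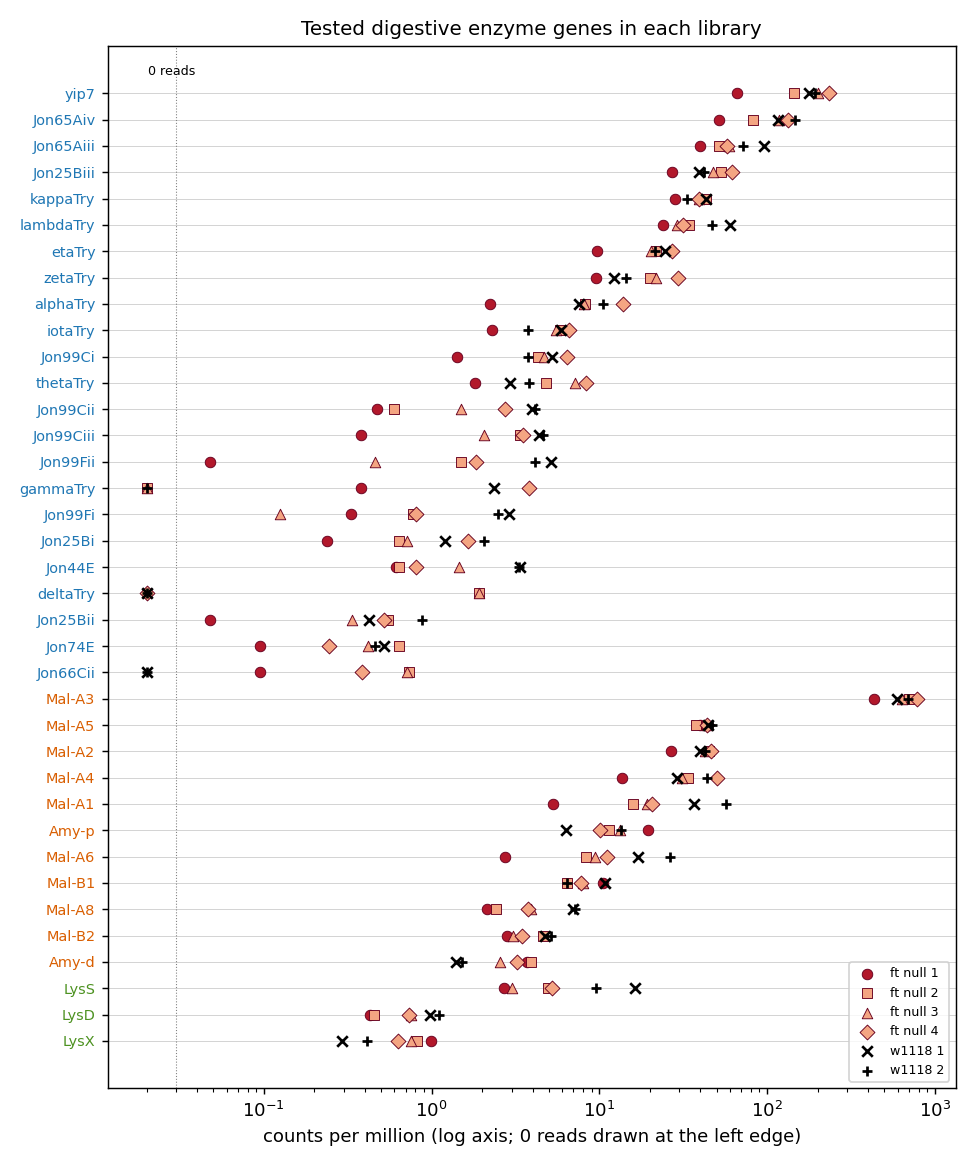
Level of each of the 37 tested members in each library, in CPM on a log axis, with genes ordered within each class by level per kilobase (blue names, proteases; orange, carbohydrate enzymes; green, lysozymes). Red circles, *ft* null replicate 1, lie left of the other 3 *ft* null libraries for 29 of the 37 genes; genes with 0 reads are drawn at the left edge.

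Of the 37 tested members, 5 were called, 4 lower and 1 higher in *ft* null, a share of 13.5% against 4.30% of all tested genes. The 4 that fell were the trypsin gene *lambdaTry*, the Jonah genes *Jon44E* and *Jon99Fi*, and the lysozyme gene *LysS*, where 2.15% of all genes were called lower. The amylase gene *Amy-d* was the 1 that rose, where 2.15% of all genes were called higher. At an unadjusted p under 0.05 there were 13 members, 3 higher and 10 lower, where the shares of all genes were 20.1%, 9.92% and 10.2%. DESeq2 called 7 lower and 2 higher, where 3.92% and 4.48% of all genes were called (8.40% in either direction). In limma voom 5 were lower and 0 higher, where 2.33% and 2.21% of all genes were called (4.54% in either direction). With near-identical copies summed, *Jon99Fi* and *Amy-d* were each part of a sum that was not called. In that fit 3 members were lower (*lambdaTry*, *Jon44E* and *LysS*) and 0 higher, where 248 and 247 of 11538 tested genes were. The median log2 fold change was -0.22 over 23 proteases, -0.14 over 11 carbohydrate enzymes and -0.78 over 3 lysozymes, against 0.01 over all tested genes. Values below 0 were found for 17, 9 and 2 of them, respectively, and for 48.1% of all genes. Groups did not overlap for 17 members, where they did not for 31.5% of all genes. Of these, 14 had all 4 *ft* null values below both controls, where 16.4% of all genes did, and 3 had all 4 above, where 15.1% did. None of the 5 calls held without either control library, in fits that called fewer genes of all kinds. Without *w1118* replicate 1 and then 2, log2 fold changes were -0.67 and -1.02 for *lambdaTry* and -1.89 and -1.92 for *Jon44E*. They were -2.25 and -2.47 for *Jon99Fi*, -1.26 and -2.03 for *LysS* and 1.14 and 1.26 for *Amy-d*. Such fits rest on a lone control that is assumed to vary like the mutants. Without *ft* null replicate 1 there were 9 lower and 3 higher, where 3.31% and 3.69% of all genes were called (6.99% in either direction).

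**Figure D2:**
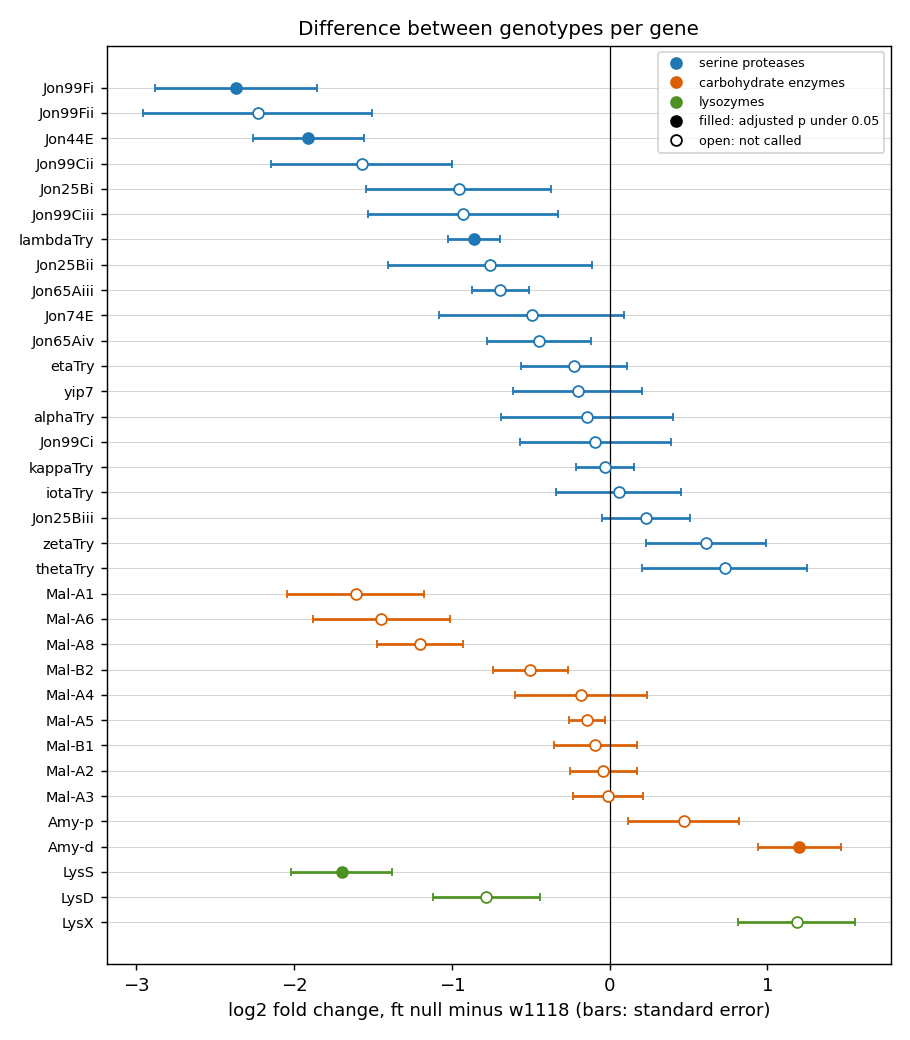
Log2 fold change of tested members, *ft* null minus *w1118*, with standard errors, by class (blue, proteases; orange, carbohydrate enzymes; green, lysozymes). Filled points are the 5 called members, 4 of them left of 0; *gammaTry*, *deltaTry* and *Jon66Cii* are left out because a copy or a genotype is at 0 reads.

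Among the proteases, *lambdaTry* (FBgn0043470, 2R from 11336840 to 11337791) stood at 23.9, 34.4, 28.9 and 31.5 CPM in *ft* null replicates 1 to 4 and at 60.4 and 47.3 CPM in *w1118* replicates 1 and 2. All mutant values lay below both controls, a log2 difference of -0.86 (SE = 0.165; edgeR adjusted p = 0.0287), or 1.82-fold lower. This call did not hold without *ft* null replicate 3 (edgeR adjusted p = 0.0925), *w1118* replicate 1 (0.14) or *w1118* replicate 2 (0.0687), with values from -1.02 to -0.67 over the libraries left out in turn. *kappaTry*, the next gene of the array, on the opposite strand, had a log2 fold change of -0.03 (edgeR adjusted p = 0.949).

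*Jon44E* (FBgn0001285, 2R from 8691448 to 8692844), a Jonah gene outside the arrays, held 13, 14, 35 and 23 estimated counts in *ft* null and 104 and 72 in *w1118*. That is 0.618, 0.639, 1.47 and 0.803 CPM against 3.38 and 3.30 CPM. The groups were apart, with a log2 difference of -1.91 (SE = 0.351; edgeR adjusted p = 0.0245). Leaving out *ft* null replicate 2 or 4 ended the call (edgeR adjusted p = 0.0778 and 0.0503), as did leaving out *w1118* replicate 1 or 2 (0.109 and 0.129). Over 49 bases its exons overlap those of CG8586 on the opposite strand. The library kit does not mark strand, and reads there cannot be told apart; CG8586 stood at 20.7 to 29.7 CPM in *ft* null and 18.6 and 19.9 CPM in *w1118*.

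The sister Jonah genes of 99F on 3R both lay below the controls in all 4 mutant libraries, and 1 of them was called. *Jon99Fi* (FBgn0039778, 3R from 30488963 to 30489895) was at 0.333, 0.776, 0.126 and 0.803 CPM in the mutants and at 2.89 and 2.48 CPM in *w1118*. It was 5.17-fold lower (log2 fold change -2.37, SE 0.513, edgeR adjusted p = 0.0438). Its sister *Jon99Fii*, which lies within the same 2.88 kb and was chosen after its values were seen, was at 0.0475, 1.51, 0.461 and 1.85 CPM against 5.17 and 4.13 CPM and did not pass (-2.23, edgeR adjusted p = 0.138). Reads are divided between these sisters by a model, so the 2 genes were also summed before the fit. Their sum lay at 0.38, 2.28, 0.586 and 2.65 CPM in *ft* null and 8.06 and 6.60 CPM in *w1118*, and it did not pass (-2.29, SE 0.605, edgeR adjusted p = 0.0784). The call of *Jon99Fi* was also lost without *ft* null replicate 2 or 3 (edgeR adjusted p = 0.082 and 0.0548) and without *w1118* replicate 1 or 2 (0.16 and 0.158).

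In the 99C array the order was similar for *Jon99Cii* and *Jon99Ciii*, also chosen after their values were seen. Summed, they stood at 0.855, 3.97, 3.56 and 6.26 CPM in the mutants and at 8.32 and 8.76 CPM in *w1118* (log2 fold change -1.21, SE 0.536, edgeR adjusted p = 0.256). The 4 mutant sums lay below both controls, with replicate 1 the lowest. *Jon99Ci*, the third gene of this array, overlapped between genotypes at 1.43 to 6.39 against 3.76 and 5.23 CPM (-0.09, edgeR adjusted p = 0.942).

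For the most abundant proteases the genotypes overlapped or did not pass. *yip7* was at 66.6, 144, 201 and 235 CPM in the mutants and at 178 and 194 CPM in *w1118* (log2 fold change -0.20, SE 0.409, edgeR adjusted p = 0.834). The mutant libraries spanned a wider range than the distance between the genotypes, and without *ft* null replicate 1 the value was 0.06. *Jon65Aiv* was at 51.8, 82.0, 118 and 134 CPM against 117 and 146 CPM (-0.45, edgeR adjusted p = 0.495). *Jon65Aiii* was at 40.1, 51.7, 58.9 and 57.6 CPM, below both controls at 96.1 and 72.1 CPM (-0.69, SE 0.18, edgeR adjusted p = 0.0755), and it was called once *ft* null replicate 1 was left out (edgeR adjusted p = 0.0427) and in DESeq2 (adjusted p = 0.0143). A pair of trypsin genes chosen after their values were seen pointed the other way without passing. *zetaTry* was at 9.50, 20.0, 21.8 and 29.5 CPM against 12.2 and 14.4 CPM (0.61, edgeR adjusted p = 0.412), and was called with *ft* null replicate 1 left out (0.85, edgeR adjusted p = 0.0351). *thetaTry* was at 1.81 to 8.38 CPM against 2.92 and 3.81 CPM (0.73, edgeR adjusted p = 0.484).

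*Jon66Cii* (FBgn0035887, 3L from 8392820 to 8393649) was assigned reads in the mutants alone. It held 2, 16.4, 17 and 11 estimated counts in *ft* null and 0 in both controls, at least 8.45-fold higher against a floor of 3 counts over the 2 controls. It did not pass in edgeR (edgeR adjusted p = 0.0729), but passed in DESeq2 (adjusted p = 0.00916) and with *ft* null replicate 1 left out (edgeR adjusted p = 0.0102). Its neighbour *Jon66Ci*, below the filter, held 4, 4.61, 6 and 12 counts in *ft* null and 3 and 0 in *w1118*. In *ft* null replicates 2 and 4 both genes held fractional counts, 16.386 and 10.959 for *Jon66Cii* and 4.614 and 12.041 for *Jon66Ci*. Reads may thus be divided between them by a model, and the 2 genes were not summed. The 0 counts of *Jon66Cii* in the controls and its bound are uncertain to that extent.

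The Jonah genes nearest to the *ft* locus are the 3 of 25B, 728 kb away on 2L. *Jon25Biii* was at 27.3, 53.3, 47.6 and 62.2 CPM in the mutants and at 39.3 and 41.8 CPM in *w1118* (log2 fold change 0.23, edgeR adjusted p = 0.697). *Jon25Bi* and *Jon25Bii* had values of -0.96 and -0.76 (edgeR adjusted p = 0.409 and 0.56). All 3 overlapped between the genotypes. They were chosen for their position.

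Single trypsin copies could not be measured one by one. *gammaTry*, *deltaTry* and CG30031 are known as near-identical copies, in 1 array of 11 named trypsins that spans 20.7 kb of 2R. In every library 1 of the 3 copies carried all their reads, and it was not the same copy throughout. *gammaTry* held 8.13, 0, 0 and 109 estimated counts in *ft* null and 72.5 and 0 in *w1118*. *deltaTry* held 0, 41.6, 46.1 and 0, and then 0 in both controls, which alone would read as at least 16.2-fold higher in *ft* null. CG30031, which is no member by name, held 72.3 counts in *w1118* replicate 2 and 0 in the other 5 libraries. Summed with CG30025, at 0 throughout, the copies stood at 0.386, 1.90, 1.93 and 3.82 CPM in *ft* null and 2.36 and 3.31 CPM in *w1118* (log2 fold change -0.47, SE 0.628, edgeR adjusted p = 0.73). The genotypes overlapped in this sum.

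**Figure D3:**
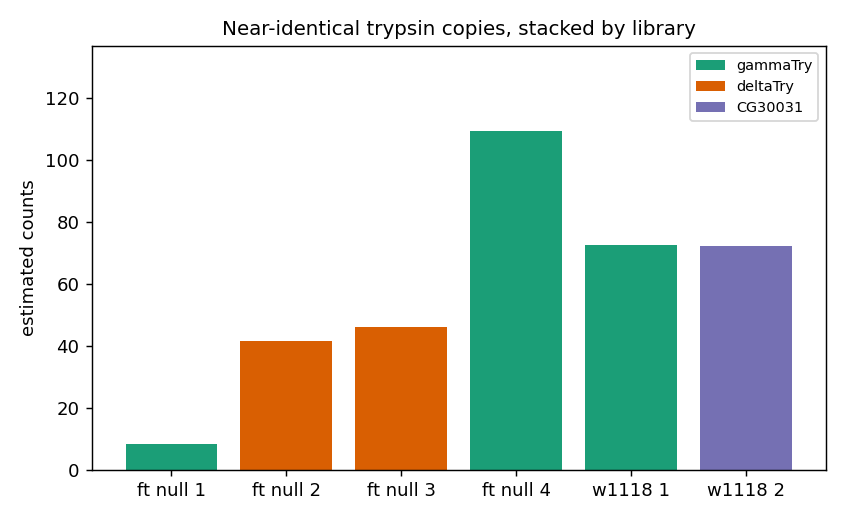
Estimated counts of *gammaTry*, *deltaTry* and CG30031, stacked, in each library. Each bar is of 1 colour, and the colour changes between libraries of the same genotype, while the height runs from 8.13 in *ft* null replicate 1 to 109 in replicate 4.

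Among carbohydrate enzymes, 1 amylase gene rose and no maltase gene passed. All 9 tested *Mal* genes had a log2 fold change below 0 (median -0.18), where 48.1% of all tested genes did. In edgeR 0 of them were called, where 4.30% of all tested genes were. At an unadjusted p under 0.05, 3 were lower and 0 higher, where 10.2% and 9.92% of all tested genes were. *Mal-A3*, the most abundant, was at 432, 704, 637 and 783 CPM in the mutants and at 594 and 692 CPM in *w1118* (-0.01, SE 0.224, edgeR adjusted p = 0.989). Its value turned to 0.14 without *ft* null replicate 1 and 0.11 without *w1118* replicate 2. *Mal-A2* was at 26.8, 44.8, 42.5 and 46.0 CPM against 39.6 and 42.7 CPM (-0.04, edgeR adjusted p = 0.944), and turned to 0.11 and 0.02 in the same fits. *Mal-A5* was at 39.9, 37.5, 44.1 and 43.9 CPM against 44.2 and 47.1 CPM (-0.14, SE 0.113, edgeR adjusted p = 0.527). The means of these 3 genes were at most 1.10-fold apart between the genotypes.

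Of the 9 tested *Mal* genes, 5 had all 4 *ft* null values below both controls, where 16.4% of all tested genes did. *Mal-A5*, described above, and *Mal-B2* (log2 fold change -0.50, edgeR adjusted p = 0.285) were among them. The others were *Mal-A1*, *Mal-A6* and *Mal-A8*, 3 genes of the same array as *Mal-A5*. *Mal-A1* (FBgn0002570, 2R from 8449664 to 8451904) was at 5.32, 15.9, 19.3 and 20.7 CPM in the mutants and at 36.8 and 57.0 CPM in *w1118* (log2 fold change -1.61, SE 0.434, edgeR adjusted p = 0.0828). *Mal-A6* and *Mal-A8*, chosen after their values were seen, were at 2.76 to 11.1 against 17.1 and 26.3 CPM (-1.45, edgeR adjusted p = 0.113) and at 2.14 to 3.94 against 6.98 and 7.20 CPM (-1.20, edgeR adjusted p = 0.0512). None of the 3 passed in the filtered edgeR fit of all 6 libraries, while DESeq2 called *Mal-A6* and *Mal-A8* (adjusted p = 0.0131 and 0.00393). *Mal-A1* shares 82 exon bases with *Cyp4e1*, and *Mal-A8* shares 6 with *mtt*, each on the opposite strand. With *ft* null replicate 1 left out all 3 passed, with log2 fold changes of -1.33, -1.16 and -1.06 (edgeR adjusted p = 0.00454, 0.0128 and 0.0302). The array of 8 *Mal-A* genes spans 24.3 kb of 2R, and these 3 are not next to each other. Between *Mal-A1* and *Mal-A6* lie *Mal-A2* to *Mal-A5*, with values from -0.18 to -0.01. Whether genes within the array differ from each other in their response was not tested.

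**Figure D4:**
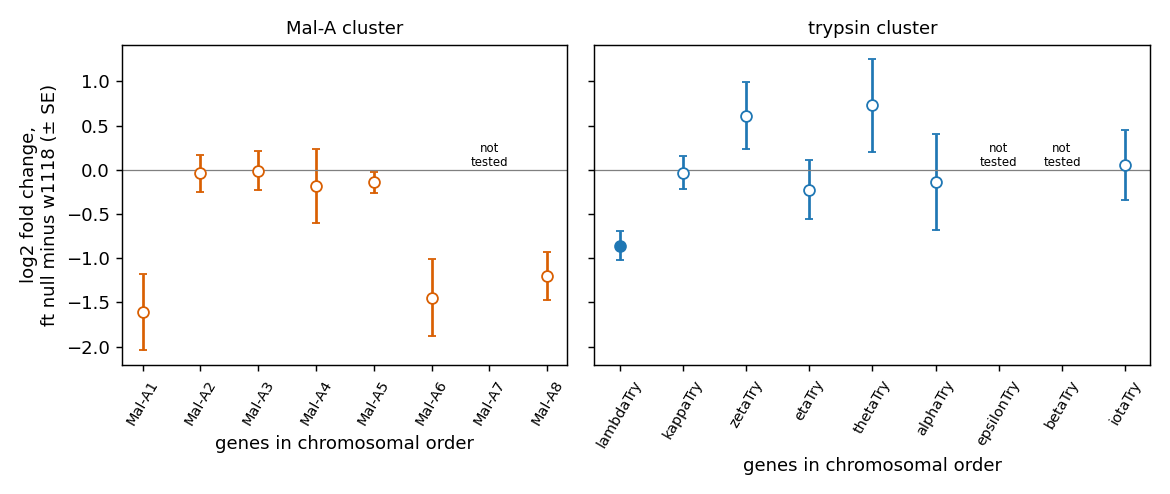
Log2 fold change of *ft* null minus *w1118* with standard errors, for the *Mal-A* array (left) and the trypsin array (right), in chromosomal order; the filled point is *lambdaTry*. *Mal-A1*, *Mal-A6* and *Mal-A8* lie between -1.61 and -1.20, and *Mal-A2* to *Mal-A5* between -0.18 and -0.01; *gammaTry* and *deltaTry* are left out.

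The amylase gene *Amy-d* (FBgn0000078, 2R from 17124764 to 17126369) was at 3.71, 3.92, 2.55 and 3.21 CPM in the mutants and at 1.40 and 1.51 CPM in *w1118*. All 4 mutant values lay above both controls, and it rose by 1.20 on the log2 scale (SE 0.263, edgeR adjusted p = 0.0452). Its sister *Amy-p* overlapped at 10.1 to 19.6 against 6.37 and 13.4 CPM (0.47, edgeR adjusted p = 0.504). The pair is known to be close in sequence, and reads are divided between them by a model. Summed, they were at 23.3, 15.4, 15.9 and 13.3 CPM in *ft* null and 7.76 and 14.9 CPM in *w1118* and did not pass (0.59, SE 0.308, edgeR adjusted p = 0.332). The call of *Amy-d* was lost without every library other than *ft* null replicate 1, with edgeR adjusted p from 0.0614 to 0.158 (without *ft* null replicates 2, 3 and 4 and *w1118* replicates 1 and 2), and in limma voom (adjusted p = 0.0514).

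Of the lysozymes, *LysS* (FBgn0004430, 3L from 1227747 to 1228238), known for expression in the gastric caeca of the larva, was at 2.71, 4.93, 3.02 and 5.24 CPM in the mutants and at 16.3 and 9.54 CPM in *w1118*. All mutant values lay below both controls, and it was 3.25-fold lower (log2 fold change -1.70, SE 0.319, edgeR adjusted p = 0.0266). This call ended without *ft* null replicate 2 or 3 (edgeR adjusted p = 0.058 and 0.0829) or *w1118* replicate 1 or 2 (0.149 and 0.0623), with values of -2.03 to -1.26 over the libraries left out in turn. *LysS* lies on the same strand inside an intron of *mwh*, a polarity gene of wing hairs, and shares no exon bases with it. Reads of unspliced *mwh* RNA cannot be told apart from those of *LysS* there. The level of *mwh* was 54.0 to 97.9 CPM in *ft* null and 82.5 and 81.9 CPM in *w1118* (-0.15, edgeR adjusted p = 0.758). *LysD*, *LysE* and *LysP* also lie inside *mwh* and share no exon bases with it. *LysE* was at 0.0419 to 0.0699 CPM over the 6 libraries and *LysP* at 0. The part of unspliced *mwh* RNA in the lysozyme counts was not tested.

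*LysD* was at 0.428, 0.456, 0.754 and 0.734 CPM against 0.975 and 1.10 CPM and did not pass (log2 fold change -0.78, edgeR adjusted p = 0.25). With its near-identical sisters *LysB*, *LysC* and *LysE* summed in, it gave -0.74 (edgeR adjusted p = 0.305). *LysC* is annotated as a pseudogene and held 2 reads, both in *ft* null replicate 4. *LysX* lay the other way, with 21, 18, 18 and 18 reads in *ft* null and 9 in each control, or 0.998, 0.821, 0.754 and 0.629 against 0.292 and 0.413 CPM (1.19, SE 0.369, edgeR adjusted p = 0.123). For all 3 tested lysozymes the genotypes did not overlap, with 2 below and 1 above the controls. Of all tested genes, 31.5% did not overlap, and 4 of the 7 lysozyme genes were not tested.

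Members also varied among the mutant libraries. *ft* null replicate 1 was the lowest of the 4 mutant libraries for 29 of the 37 tested members (78.4%), where it was so for 36.8% of all tested genes. It was the lowest of all 6 libraries for 28 members (75.7%, against 26.6% of all genes). Its level divided by the mean of replicates 2 to 4 had a median of 0.286 over 14 Jonah genes with *yip7*, 0.383 over 9 trypsins and 0.61 over 9 maltases, against 0.99 over all genes. The amylases were not low there: *Amy-p* and *Amy-d* stood at 1.69 and 1.15 times the mean of the other 3. As classes, the proteases summed to 268 CPM in replicate 1 and 485, 572 and 669 CPM in replicates 2 to 4, against 618 and 615 CPM in the controls. The carbohydrate enzymes summed to 559 CPM and 873, 815 and 983 CPM, against 792 and 943 CPM. Proteases thus had 0.479 CPM for each CPM of carbohydrate enzymes in replicate 1, 0.556 to 0.702 in the other mutants and 0.652 and 0.78 in the controls.

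*alphaTry*, chosen after its values were seen, gives a picture of that spread, with 2.23, 8.17, 8.12 and 13.9 CPM in *ft* null and 7.57 and 10.5 CPM in *w1118*. *ft* null replicate 4 was the highest mutant library for 21 of the 37 members (56.8%, against 27.8% of all genes). Without replicate 1, the median of the proteases was 0.00, that of the carbohydrate enzymes -0.13 and that of the lysozymes -0.66. The protease median was -0.38 without replicate 2, -0.56 without replicate 3 and -0.49 without replicate 4, and -0.36 and -0.30 without *w1118* replicate 1 or 2. In limma voom it was -0.54. Replicate 1 was the lowest mutant library for 5 of 16 midgut identity genes, at a median of 1.04 times the mean of the other 3. For 21 other genes of digestion and the gut lumen that median was 0.82, below 1 as for the members. In 6 lists of other tissues it was above 1, at 1.46 times for 5 tested salivary gland genes, 1.17 for 5 of fat body, 1.15 for 8 of visceral muscle, 1.15 for 6 of hemocytes, 1.15 for 4 of yolk and maternal RNA and 1.05 for 7 of hindgut and Malpighian tubule. Summed levels were 4270 to 4777 CPM in *ft* null and 4130 and 5332 CPM in *w1118* for midgut identity, and 1105 to 1429 against 899 and 1017 CPM for visceral muscle. Of the midgut identity sum, *mesh* alone held 2381 to 2829 CPM in *ft* null and 2471 and 3636 CPM in *w1118*. Of the 21 tested other genes of digestion, 11 had replicate 1 as their lowest mutant library. The sum over all 28 was still highest in replicate 1, at 2588 CPM, unlike that of the members. Replicates 2 to 4 had 1927, 2304 and 2119 CPM there, and the controls 1788 and 1962 CPM. Replicate 1 had the fewest counts of all libraries, 21261928, with 268 CPM of proteases. Next were *w1118* replicate 2 with 22217098 counts and 615 CPM, and *ft* null replicate 2 with 22575469 counts and 485 CPM. The part of these measures in the low enzyme levels of replicate 1 was not tested.

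**Figure D5:**
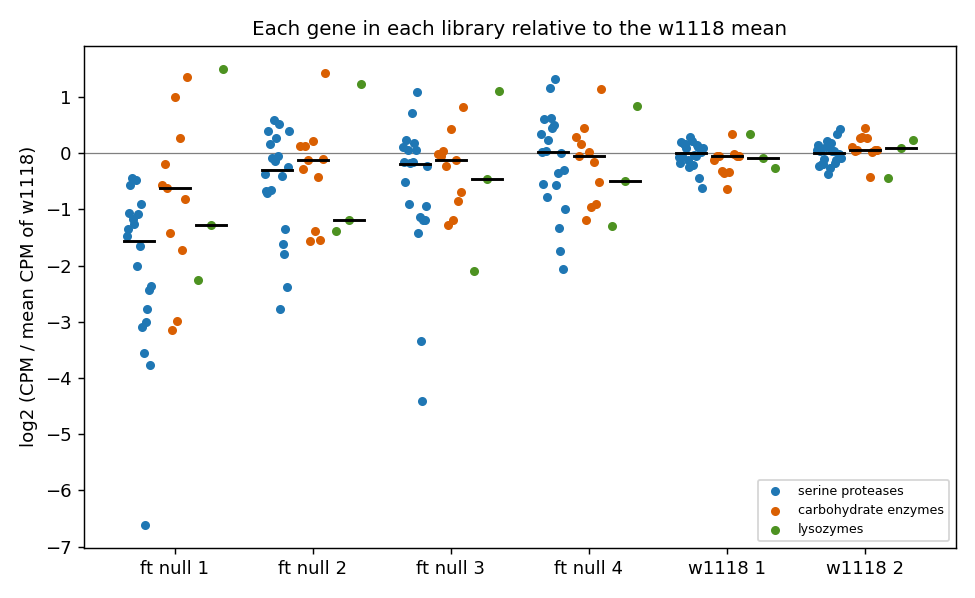
Level of each tested member in each library relative to the mean of the 2 *w1118* libraries, on a log2 scale, by class; black bars are medians, and genes with no *w1118* reads and *gammaTry* are left out. The points of *ft* null replicate 1 sit mostly below 0 while those of replicate 4 lie on both sides of it.

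Other genes of digestion were read from a list of 28 symbols that the rule does not cover, of which 21 were tested. Of these, 1 fell, 0 rose and 20 did not pass, with a median log2 fold change of -0.17. The share called was 4.76%, near the 4.30% of all tested genes. CG17633 was the one that fell, from 140 and 154 CPM in *w1118* to 22.7, 36.3, 39.1 and 46.3 CPM in *ft* null (-2.02, SE 0.234, edgeR adjusted p = 0.0031). The mutant libraries were below both controls. *Try29F*, a trypsin-like gene with a name outside the rule, was at 124, 215, 218 and 227 CPM against 134 and 119 CPM (0.63, edgeR adjusted p = 0.195). The lipase gene *mag*, spelled with a small letter in the table, was at 4.09, 8.53, 9.38 and 9.22 CPM against 6.46 and 8.67 CPM (0.05, edgeR adjusted p = 0.952). Replicate 1 was the lowest mutant library for 11 of the 21 listed genes. In 6 lists of other tissues 0 genes were called in edgeR, where 4.30% of all tested genes were. These short lists were visceral muscle (8 tested genes), hindgut and Malpighian tubule (7), salivary gland (5), fat body (5), yolk and maternal RNA (4) and hemocytes (6). At an unadjusted p under 0.05, 3 were higher and 1 lower in visceral muscle, 2 and 1 in hemocytes, and 0 higher with at most 1 lower in each of the other 4 lists. Of all tested genes, 9.92% were higher and 10.2% lower at that threshold.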

How the data were processed

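Total RNA of 16-20 h embryos was made into cDNA with a SMARTer Ultra Low kit and read as paired ends on a NovaSeq X Plus, per the labels' protocols. The gene values are estimated counts, not normalized, in 1 table that the authors deposited. The submitters' processing notes name FastQC 0.10, Trimmomatic 0.33, Salmon 1.80, edgeR and the build dm6, without their order or settings. Salmon divides reads between similar transcripts by a model, so single copies of near-identical genes are uncertain.

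Estimated counts were rounded, filtered with filterByExpr, scaled by TMM and tested with edgeR 4.0.16 (glmQLFit), with DESeq2 1.42.0 and limma 3.58.1 (voom) as alternatives. Standard errors are the log2 fold change divided by the root of the F statistic. The steps were tested on simulated data. Near-identical copies were also summed, an alternative chosen after seeing the data. Gene positions and exon lengths come from the Ensembl annotation of the same coordinates. Counts include PCR copies, so bounds cover counting error only.

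Named genes are each called member, the 3 highest per kilobase and the largest change in each class, members at 0 reads in 1 genotype and at least 10 in the other, and *ft*. *Jon25Bi*, *Jon25Bii* and *Jon25Biii* were chosen for their position. The other genes named with values were chosen after their values were seen. The members and lists were chosen with earlier results of these data known.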

Additional observations from a re-analysis of the deposited data

Results flagged for a closer look

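*Mal-A2* in *ft* null replicate 1 stood apart from the other mutants, at 26.8 CPM against 44.8, 42.5 and 46.0 CPM in replicates 2 to 4. The gap on the log2 scale was 0.853 of the range of the 4 values, past Dixon's critical value for 4 samples. It was the only one past that value among 40 sets of 4 mutant values checked, and chance passes about 1 in 20.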

How the results depend on the processing

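With another library scaling, unrounded counts or no filter on low counts, the counts of called members stayed within 1.5 times those of the 6-library edgeR fit. DESeq2 called 2 members higher and 7 lower, with 517 genes higher and 453 lower overall. In limma voom 0 members were called higher, as with near-identical copies summed. Over the fits that leave out 1 library, 0 to 3 members were called higher and 0 to 9 lower, and 101 to 425 genes were higher and 72 to 381 lower. Without both *ft* null replicate 1 and *w1118* replicate 2, 477 genes were higher. The log2 fold change of *yip7* turned to 0.057 without *ft* null replicate 1 and to 0.11 without both libraries. *Mal-A3* turned to 0.14 without *ft* null replicate 1, 0.11 without *w1118* replicate 2 and 0.24 without both, and *Mal-A2* to 0.11, 0.02 and 0.16. Over the fits without 1 library these 3 genes ran from -0.44 to 0.057, from -0.12 to 0.14 and from -0.11 to 0.11. The median of the lysozymes was -0.44 with no filter on low counts, a setting that tests more lysozyme genes. Replicate numbers 1 and 2 occur in both genotypes, and their deviations from the group means correlated at 0.153 for number 1 and -0.04 for number 2. With 2 controls, the deviations of 1 control mirror those of the other, so these are not 2 separate checks. Whether libraries of the same number were paired cannot be decided from them. With the replicate block on those 4 libraries, 0 members were called higher and 8 lower, where 231 genes were higher and 262 lower of 11313 tested. The call of *lambdaTry* was lost (edgeR adjusted p = 0.0697), the protease median was -0.91 and the lysozyme median -1.22. Without the block on the same 4 libraries, 0 members were higher and 3 lower (*Jon44E*, *Jon99Cii* and *Mal-A8*), 131 genes were higher and 117 lower, the protease median was -0.85 and the lysozyme median -1.22. Where no cause is named, the cause was not tested. Depth is low for some members: *Jon66Cii* rests on 46 reads over the 4 mutant libraries and *LysX* on 9 in each control.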
